A study of Mus musculus with 2 samples.

Results

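The 4 genes described here encode the main steps of the renin-angiotensin system and were followed in mesenchymal stromal cells (MSC) of intestine grafted under the kidney capsule. They are Ren1 (renin), Agt (angiotensinogen), Ace (angiotensin-converting enzyme) and Agtr1a (angiotensin II receptor type 1a), 4 of the 28692 features of each matrix. They were selected on their measured levels by stromal class in these libraries, which were already known, so every level below is a description with no test. Adult WT mice received embryonic small or large intestine of mice labelled EYFP (C57BL/6) as a graft beneath the capsule of the kidney, and the grafts were recovered 4 weeks later. One gate served both groups: live Itgb1+ YFP+ cells negative for EpCAM, CD31, L1CAM, BP3, CD45 and Ter119. Each group, large intestine (LI) or small intestine (SI) grafts, is 1 single-cell library. The LI grafts were pooled, whether the SI grafts were pooled was not stated, and EYFP came from a reporter allele activated by Cre, in a line whose name in the study's methods also lists a second mouse strain. There is therefore no replicate, no p-value and no test of any difference between the libraries. Intestinal site, grafts, host animals and library cannot be told apart.

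Renin is an aspartyl protease that is secreted into blood by juxtaglomerular cells, modified smooth muscle cells in the wall of the arterioles that feed the kidney glomerulus. It cuts angiotensinogen, a protein made mostly by liver, to angiotensin I. Angiotensin-converting enzyme, a membrane peptidase of endothelium and of epithelial brush borders, removes a dipeptide to give angiotensin II, which contracts vessels through its type 1 receptor. Mural cells of the developing vasculature can make renin before it becomes restricted to the juxtaglomerular site. The grafts lay against the kidney, the organ that makes most circulating renin, so the cells with Ren1 were examined for genes of gut mesenchyme and of kidney. No EYFP feature is in the matrices, and the origin of a cell could not be read from the reporter. Some mouse strains carry a near-identical second renin gene, Ren2, which C57BL/6 lacks. Which renin locus the EYFP mice, whose reporter line is not of C57BL/6 alone, carried was not checked.

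In GRCm38, Ren1 (ENSMUSG00000070645) lies on the plus strand of chromosome 1 from 133350510 to 133360325, and Agt (ENSMUSG00000031980) on the minus strand of chromosome 8 from 124556534 to 124569706. Agtr1a (ENSMUSG00000049115) lies on the plus strand of chromosome 13 from 30336441 to 30382867, and Ace (ENSMUSG00000020681) on the plus strand of chromosome 11 from 105967945 to 105989964. The 250 bases before the RefSeq start of Ren1 and of Agt are shown because these are the members with opposite levels in CD81 FB, high for Ren1 and low for Agt. For Ren1 the RefSeq start lies after the first base of the gene given above, so part of its window lies within that gene. In the Ren1 sequence the first capitals mark an element of the kind bound by homeobox factors, and the second mark a TATA box.
Ren1, GRCm38.p6 chr1:133350424-133350673, plus strand: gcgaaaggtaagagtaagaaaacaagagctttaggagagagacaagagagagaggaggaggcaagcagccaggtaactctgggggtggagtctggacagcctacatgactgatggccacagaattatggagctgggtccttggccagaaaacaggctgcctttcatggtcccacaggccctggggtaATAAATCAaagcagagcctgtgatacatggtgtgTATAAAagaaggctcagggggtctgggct
Agt, GRCm38.p6 chr8:124569707-124569956, minus strand, with the TATA box in capitals: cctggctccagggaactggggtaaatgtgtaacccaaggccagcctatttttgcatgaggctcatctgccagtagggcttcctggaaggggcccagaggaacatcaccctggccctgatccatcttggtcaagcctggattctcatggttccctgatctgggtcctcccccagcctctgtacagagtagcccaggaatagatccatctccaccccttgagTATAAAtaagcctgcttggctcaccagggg

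The element was searched as TGATTTAT on both strands of all 32851 RefSeq promoter windows of this length and was found in 275 of them (0.837%). In Ren1 it read on the minus strand and spanned bases 63 to 56 before the start. TATAAA, searched on both strands, was found in 4063 windows (12.4%), and it lay at bases 29 to 24 before the start in Ren1 and at bases 30 to 25 in Agt. These matches describe letters in the windows and are not measured binding sites. Homeobox genes that could be read beside the element did differ between the libraries. Over all kept cells Hoxa10 was at 65.4 UMIs per 1000000 UMIs (CPM) in LI and 0.716 CPM in SI, and Hoxd10 was at 29.6 CPM in LI and had no UMI in SI. These posterior Hox genes mark the position along the gut, and their part in the Ren1 level was not tested.

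The LI library held 11568 barcodes and 63348069 UMIs, of which 9873 barcodes (85.3%) passed the limits of 500 genes or more and no more than 10% of UMIs from mitochondrial genes. The SI library held 9631 barcodes and 54918006 UMIs, of which 7910 (82.1%) were kept. Median depth of the kept cells was 5288 UMIs in LI and 5682 in SI. The 2 libraries shared 26 barcode sequences, 14 among the kept cells, and 1 of the SI cells with Ren1 but none of the LI cells had a shared barcode. Cells were put into classes by marker scores, and the score limits were set after the scores were seen. CD81 FB numbered 2783 in LI and 2567 in SI, and 1270 and 844 cells lay within 0.1 of that limit. Other classes were PDGFRAhi FB (620 and 454), Fgfr2 FB (688 and 419), fibroblasts of none of these gates (3762 and 2184), Myh11- mural cells (435 and 618), Myh11+ mural cells (236 and 701), smooth muscle cells (SMC; 608 and 639) and interstitial cells of Cajal (ICC; 397 and 82). The CD81 FB gate took cells mainly of clusters 1 (36%), 8 (23.4%) and 12 (11.5%) in LI and of clusters 9 (36.8%), 6 (24.2%) and 2 (10.4%) in SI. Levels are pooled CPM, that is UMIs of the gene per 1000000 UMIs of the class, with exact Poisson 95% intervals, and shares of cells carry exact binomial intervals. Both cover counting error only, and since the UMIs of Ren1 come from few cells its true uncertainty is wider. The kit (3′ or 5′) of each library was not given. Levels are therefore not compared between genes, and a ratio of LI to SI may also hold a difference of kit, which cannot be told apart from the grafts.

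Both libraries held cells of both sexes. Of its kept cells, 7967 (80.7%) had Xist, the RNA that coats the inactive X chromosome, without a Y-linked UMI, 889 (9%) had Y-linked UMIs without Xist, and 1017 had both or neither. In SI these were 4353 (55%), 1922 (24.3%) and 1635. The Y-linked cells were concentrated in LI clusters 12 and 3, where they made up 58.2% and 50.3%, whereas 67.5 to 97.7% of the cells in the other LI clusters had only Xist. Male and female cells of a pooled library must come from different animals, but whether those are grafts or hosts cannot be told apart here.

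Angiotensinogen transcripts were high in the gated Fgfr2 FB, PDGFRAhi FB and SMC, and lowest in CD81 FB. In LI, Agt was at 136 CPM (95% interval 133 to 139), with a UMI in 24.6% of cells, and in SI it was at 70.4 CPM (68.1 to 72.7), with a UMI in 16%. With every cell thinned to 2000 UMIs the shares were 17.3 and 9.75%. Of the gated classes, Fgfr2 FB had the highest level in both libraries, 387 CPM with 60.2% of cells in LI and 276 CPM with 52.5% in SI. This order depends on the gate, since 1869 LI and 1546 SI cells lay within 0.1 of the Fgfr2 limit, and LI cluster 9, whose cluster name is PDGFRAhi FB, was at 531 CPM. PDGFRAhi FB, which lie under the epithelium, had 299 CPM in LI and 99.1 CPM in SI by the gate. SMC had 241 CPM and 193 CPM. Fibroblasts of no gate had 188 and 88.3 CPM, Myh11+ mural cells 83.3 and 43.6 CPM, Myh11- mural cells 60.3 and 39.3 CPM, and ICC 61.5 and 17.6 CPM. CD81 FB were lowest in both libraries, at 13.9 CPM (5.64% of cells) in LI and 5.74 CPM (2.8%) in SI. The level was higher in LI in each of these classes. The ratio of LI to SI was 3.01 (2.64 to 3.45) in PDGFRAhi FB, 2.43 (1.94 to 3.05) in CD81 FB, 1.4 (1.29 to 1.53) in Fgfr2 FB and 1.25 (1.14 to 1.37) in SMC.

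Within LI the Agt level went with the sex-linked genes. It was 169 CPM in the cells with only Xist and 12.5 CPM in the cells with only Y-linked UMIs. In Fgfr2 FB the same levels were 469 and 46.9 CPM, in SMC 295 and 26.2 CPM, and in fibroblasts of no gate 237 and 4.55 CPM. The Y-linked cells of Fgfr2 FB and SMC numbered 40 and 42. In SI the level was 65.6 CPM in Xist cells and 67.8 CPM in Y-linked cells, with 285 and 249.8 CPM in Fgfr2 FB, 186 and 204 CPM in SMC and 74.9 and 94.9 CPM in fibroblasts of no gate. LI PDGFRAhi FB went another way, at 301 CPM in Xist cells and 281 CPM (202 to 381) in 24 Y-linked cells. The LI Y-linked cells were thus low in Agt in the first 3 classes but not in PDGFRAhi FB, and the SI Y-linked cells were not low in those 3. The part of the Y-linked cells in the LI level was not tested.

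Renin was read mainly in fibroblasts of the CD81 gate, and far more in LI than in SI. Ren1 had 4729 UMIs in 579 of the LI cells (5.86%, 95% interval 5.41 to 6.35%) and 226 UMIs in 74 of the SI cells (0.936%, 0.735 to 1.17%). The pooled level was 77.5 CPM (75.3 to 79.7) in LI and 4.38 CPM (3.82 to 4.98) in SI, a ratio of 17.7 (15.5 to 20.3). At 2000 UMIs per cell the shares were 3.58 and 0.38%. In LI, CD81 FB were at 131 CPM (127 to 136) with a UMI in 12% of cells (10.8 to 13.2%), or 7.12% after thinning. In SI they were at 10.6 CPM (9.17 to 12.2) with a UMI in 2.45% (1.89 to 3.13%), or 0.964% after thinning. CD81 FB held 333 (57.5%) of the LI cells with Ren1 and 63 (85.1%) of the SI cells with Ren1. The ratio of LI to SI within them was 12.4 (10.7 to 14.4). Both the share and the gap between the libraries depended on how the class was drawn. With whole clusters in place of the gate the share was 6.3% in LI (cluster 1, at 46.3 CPM) and 5.55% in SI (cluster 6, at 24.3 CPM), a far smaller gap, since the LI clusters richest in Ren1, 12 and 8, were not named CD81 FB as clusters.

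**Figure D1:**
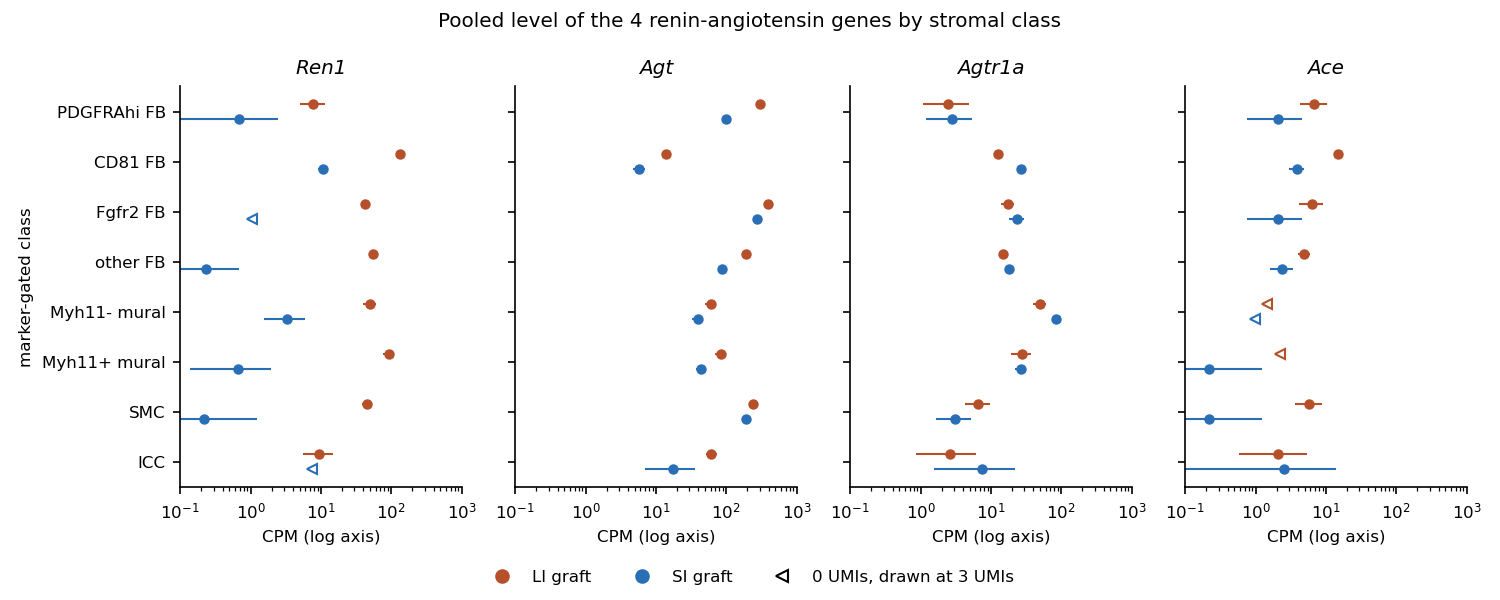
Pooled level of each gene (CPM, log axis) by stromal class in the LI and SI libraries, with exact Poisson 95% intervals. Open triangles mark classes with no UMI, drawn at the level of 3 UMIs, and intervals below 0.1 CPM are cut at the axis. Of the 8 classes, Ren1 is highest in CD81 FB (131 CPM in LI, 10.6 CPM in SI), where Agt is lowest (13.9 and 5.74 CPM), Agtr1a is highest in Myh11- mural cells and Ace has no UMI in the gated LI mural cells.

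After CD81 FB, the LI order of Ren1 was Myh11+ mural cells at 92.9 CPM (7.63% of cells), fibroblasts of no gate at 55.1 CPM (4.12%), Myh11- mural cells at 49.2 CPM (4.6%), SMC at 44.8 CPM (2.47%) and Fgfr2 FB at 42.5 CPM (2.47%). The intervals of the last 4 of these classes overlapped along the order. Some of these levels rest on 1 cell, which held 135 of the 177 Ren1 UMIs of LI SMC, 84 of the 189 of Fgfr2 FB, 62 of the 126 of Myh11+ mural cells and 17 of the 25 of PDGFRAhi FB, so the order of these classes is no firmer than those cells. ICC at 9.47 CPM (5 of 397 cells, 1.26%, median depth 4245 UMIs) and PDGFRAhi FB at 7.71 CPM (6 of 620, 0.968%, median depth 4855 UMIs) were lowest. LI cluster 14, an SMC cluster, had a UMI in 2 of 454 cells (0.441%, median depth 4816 UMIs). These low shares are named for their Ren1 values, so they set no independent background. That the share in LI CD81 FB lies above them follows from this choice. In SI no class of the 8 after CD81 FB differed from its neighbours beyond counting error. Outside them, 1 of 20 SI mesothelial cells held 8 Ren1 UMIs, which made 31.3 CPM (13.5 to 61.7). SI mural cells had a Ren1 UMI in 4 of 1319 cells (0.303%), no more than the 0.441% of SI PDGFRAhi FB, and that share is read as background, although 1 of these cells had 9 UMIs. Their level was 1.7 CPM. LI mural cells were at 66.5 CPM with 5.66% of cells, or 3.35% after thinning. No ratio to SI is given, since 9 of the 13 SI mural UMIs came from 1 cell. SI Fgfr2 FB had no Ren1 UMI in 419 cells, where 3 counts would be 1.04 CPM, and no fold is given, since 1 cell held 84 of the 189 LI UMIs.

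The Ren1 UMIs were unevenly spread over cells. In LI, 199 cells had a single UMI, 77 had 2, 85 had 3 or 4, 79 had 5 to 9, 85 had 10 to 19, 37 had 20 to 49 and 17 had at least 50. The 218 cells with at least 5 UMIs held 86.4% of the LI Ren1 UMIs, and the 17 highest cells alone held 1241 UMIs. Without those 17 cells the LI level was 57.3 CPM. The highest LI cell, with 135 UMIs, was in the SMC gate. In SI, 40 of the 74 cells had a single UMI, the highest cell had 20, and the 15 cells with at least 5 UMIs held 60.6% of the UMIs. Cells with Ren1 were deeper than cells without it, with medians of 8249 against 5173 UMIs in LI and 11144 against 5661 in SI.

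**Figure D2:**
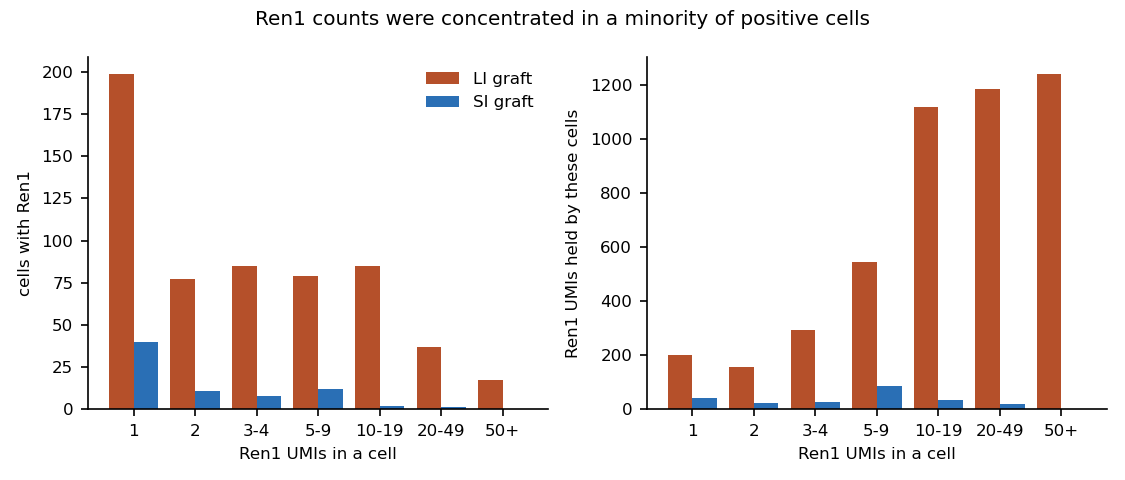
Number of cells by their count of Ren1 UMIs (classes of UMIs per cell) in the LI and SI libraries. In LI 218 cells hold at least 5 UMIs and 17 hold at least 50, while in SI 15 cells hold at least 5 and none reaches 50.

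By cluster, Ren1 was concentrated in a small number of fibroblast clusters. LI cluster 12 had 694 cells, its leading genes included Ctla2a, Fgfbp1, H2-Ab1, Tac2 and Cxcl9, and it was at 292 CPM with a UMI in 24.2% of cells, which is 47% of all LI Ren1 UMIs. LI cluster 8 had 1067 cells, its leading genes included Fmo2, Stc2, Lsamp, Cpz and Pappa2, and it was at 138 CPM with 11.9% of cells and 20.4% of the UMIs. In SI, cluster 6 (703 cells, led by Pi16, Igfbp6 and Sfrp4) was at 24.3 CPM with 5.55% of cells and 53.1% of the SI UMIs. SI cluster 1 (336 cells, with Angptl7 and Ctla2a among its leading genes) was at 14.2 CPM with 4.76% of cells and 25.2% of the UMIs. These clusters were low in Agt, with 8.69 CPM in LI cluster 12 and 13.9 CPM in LI cluster 8. The clusters highest in Agt were LI 9 (531 CPM), LI 10 (507 CPM) and LI 5 (368 CPM) and SI 4 (629.6 CPM) and SI 8 (384 CPM). Among these, SI 4 and SI 8 had no Ren1 UMI, LI 9 had 6.2 CPM, LI 5 had 19.3 CPM and LI 10 had 26 CPM. Low Agt did not always go with Ren1, since SI clusters 2, 14 and 15, at 8.16, 23.3 and 24.2 CPM of Agt, also had no Ren1 UMI.

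**Figure D3:**
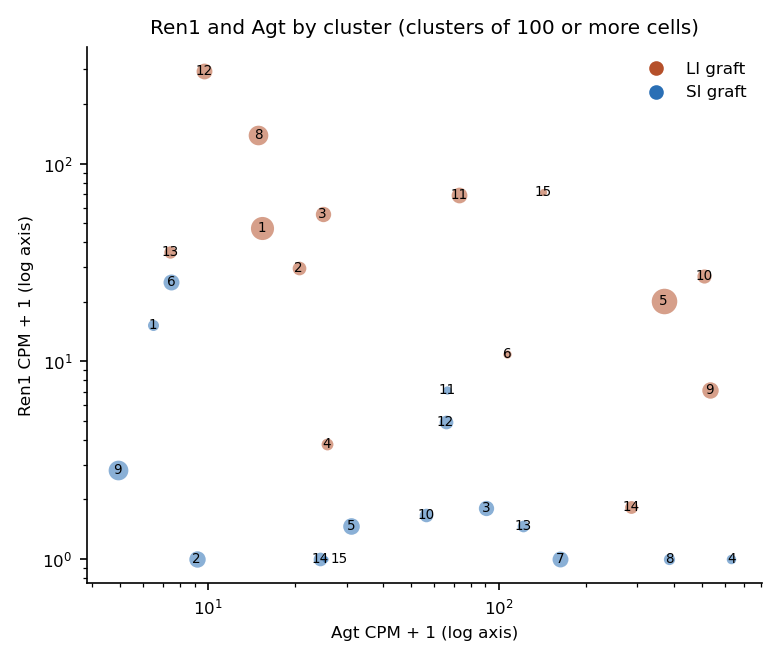
Ren1 against Agt in each cluster of at least 100 cells (both CPM + 1, log axes), with point area proportional to cells and the cluster number beside each point. LI clusters 12 and 8 lie high in Ren1 and low in Agt, SI clusters 4 and 8 lie high in Agt with no Ren1 UMI, and SI clusters 2, 14 and 15 have no Ren1 UMI at low Agt.

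The Ren1 level also went with the sex-linked genes, and in LI it did so in the opposite direction to Agt. In LI it was 45.1 CPM (4.37% of cells) in Xist cells and 184 CPM (14.3%) in Y-linked cells. Within CD81 FB it was 78.6 CPM (74.4 to 83; 9.67% of cells) and 286 CPM (269 to 304; 23.1%), and within mural cells it was 39.7 CPM (3.51%) and 342 CPM (27.7%, 13 of 47 cells). In SI the levels were 3.21 CPM in Xist cells and 7.34 CPM in Y-linked cells, and within CD81 FB 7.32 CPM (1.06% of cells) and 16.7 CPM (5.14%). The 1017 LI cells with both or neither were at 179 CPM, close to the Y-linked cells. Pooled Ren1 was thus higher in Y-linked than in Xist cells in both libraries, while the LI level stayed above the SI level within either kind. The LI order was not the same in both clusters rich in Y-linked cells. In cluster 12 Ren1 was at 86.5 CPM in 40 Xist cells and 255 CPM in 404 Y-linked cells, but in cluster 3 it was at 78.2 CPM in 63 Xist cells and 46.3 CPM in 328 Y-linked cells. Of the LI cells with Ren1, 60.1% were Xist cells and 21.9% Y-linked cells, against 82 and 8.2% of the cells without it. Of the SI cells with Ren1, 28.4 and 51.4% were Xist and Y-linked cells, against 55.3 and 24%. The part of the Y-linked cells in the Ren1 levels was not tested beyond these values.

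**Figure D4:**
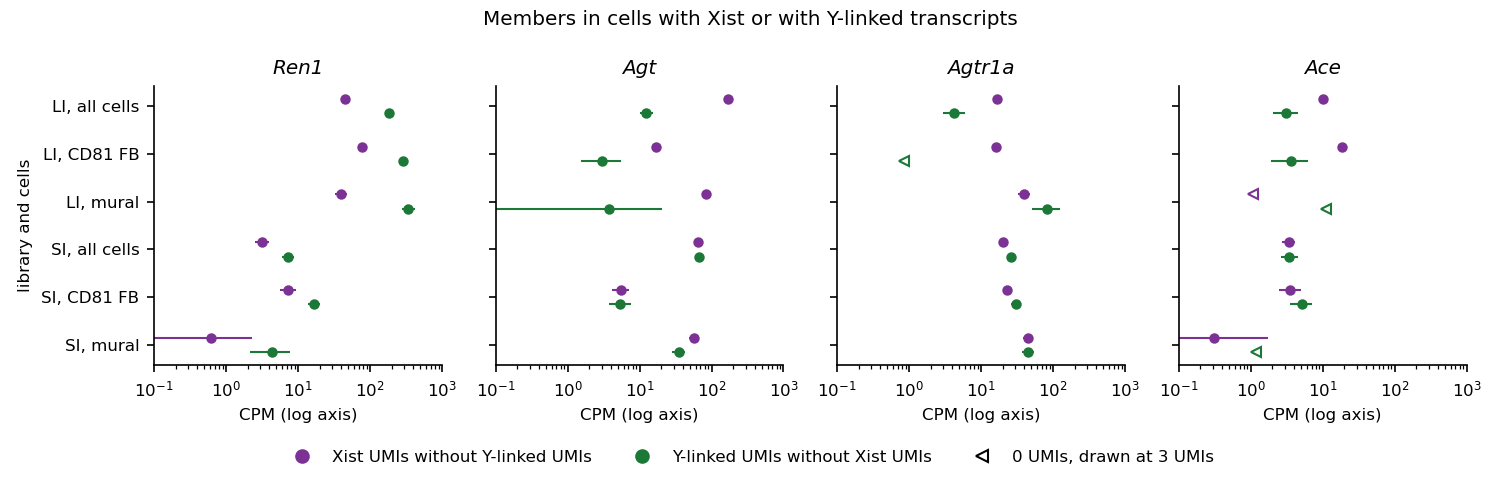
Pooled level (CPM, log axis) of each gene in cells with Xist without Y-linked UMIs and in cells with Y-linked UMIs without Xist, for each library, with exact Poisson 95% intervals. In LI the Y-linked cells are high in Ren1 (184 against 45.1 CPM) and low in Agt (12.5 against 169 CPM), and in SI Agt is close (67.8 against 65.6 CPM).

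Angiotensin-converting enzyme transcripts were sparse and, among the gated stromal classes, highest in CD81 FB, beyond counting error in LI only. Ace was at 8.44 CPM (7.73 to 9.2) with a UMI in 3.62% of cells in LI and at 3.02 CPM (2.56 to 3.53) with 1.45% in SI, a ratio of 2.79 (2.33 to 3.36). In CD81 FB it was at 14.9 CPM (7.69% of cells) in LI and 3.83 CPM (2.34%) in SI, a ratio of 3.9 (3.02 to 5.11). PDGFRAhi FB had 6.79 and 2.07 CPM. In SI the interval of CD81 FB (3 to 4.82) overlapped those of ICC, Fgfr2 FB, PDGFRAhi FB and fibroblasts of no gate. Mural cells of the gate had no UMI in 671 LI cells, where 3 counts would be 0.875 CPM, and 1 UMI in 1319 SI cells. The mural LI cluster 11 had 6 UMIs in 4 of 687 cells, at 1.74 CPM. The cluster with the highest LI level, cluster 13 (Cthrc1, Prg4 and Ptx3 among its leading genes), had 36.6 CPM with 26.1% of cells, and LI cluster 1 had 20.5 CPM. SI cluster 6, the same cluster that led Ren1, had 9.72 CPM. Outside the stroma, SI cells of other lineages were at 40.3 CPM, and 11 of 42 cells (26.2%) of the epithelial SI cluster 19 had a UMI, at 72.2 CPM. Gut epithelium is a known site of the enzyme. Within LI, Ace was at 10 CPM in Xist cells and 3.12 CPM in Y-linked cells, and in SI at 3.4 and 3.45 CPM.

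The type 1a receptor had its highest level by class in Myh11- mural cells, and was the only one of the 4 with a higher pooled level in SI. Agtr1a was at 13.8 CPM (12.9 to 14.8) with a UMI in 7.31% of cells in LI and at 23.6 CPM (22.3 to 25) with 12.3% in SI, a ratio of SI to LI of 1.71 (1.56 to 1.87). Myh11- mural cells, which are pericyte-like, had 49.2 CPM (18.9% of cells) in LI and 83.1 CPM (29.1%) in SI, a ratio of SI to LI of 1.69 (1.34 to 2.15). Myh11+ mural cells had 27.3 and 26.6 CPM. CD81 FB had 12.6 and 26.6 CPM, a ratio of SI to LI of 2.12 (1.83 to 2.46), and Fgfr2 FB had 17.3 and 23.2 CPM. SMC had 6.58 and 3.06 CPM, and PDGFRAhi FB had 2.47 and 2.76 CPM. Fibroblasts held most of the UMIs, 664 of 845 in LI and 809 of 1221 in SI, and the SI fibroblast clusters 3 (42.3 CPM) and 9 (38.6 CPM) lay above SI Myh11+ mural cells. SI held the larger share of mural cells, 16.7% against 6.8%. In LI the level was 16.5 CPM in Xist cells and 4.25 CPM in Y-linked cells, and 320 Y-linked CD81 FB had no Agtr1a UMI, against 16.2 CPM in the Xist cells of that class. LI mural cells had the opposite order, with 39.3 CPM (32.3 to 47.5) in Xist cells and 81.7 CPM (51.2 to 124) in 47 Y-linked cells. In SI the levels were 20 and 26.2 CPM.

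Each transcript was read in a minority of cells, so few cells with more than 1 of them can be seen at this depth. At least 1 of them was read in 3680 LI cells (37.3%) and 2221 SI cells (28.1%), at least 2 in 393 (3.98%) and 204 (2.58%), at least 3 in 16 and 1, and all 4 in none. Among LI CD81 FB, Agt was at 2.2 CPM in the cells with Ren1 and at 15.9 CPM in the cells without it, and Ren1 was at 10.5 CPM in the cells with Agt and 138 CPM in those without. Within the Xist cells of that class Agt was at 2.76 CPM with Ren1 and 18.6 CPM without. In SI CD81 FB, Agt was at 9.68 CPM (3.89 to 19.9, from 7 UMIs) in cells with Ren1 and 5.59 CPM (4.55 to 6.79) in cells without, and these intervals overlap. In the SI fibroblast lineage it was at 8.99 CPM with Ren1 and 63.2 CPM without.

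Genes most like each member over the 8 classes of both libraries (Pearson r of log2(CPM + 1) over 16 points that share libraries and depth) were taken from 10832 genes, as a description. For Ren1 they were Thrb, a thyroid hormone receptor (r = 0.897), Hoxc10 (0.866), Hoxa9 (0.859), Fxyd5 (0.852) and Myoc (0.843). Like Ren1, each of them was higher in LI than in SI over all cells, such as Hoxc10 at 31.2 and 1.03 CPM and Myoc at 94.8 and 7.84 CPM. Their r values therefore also hold the gap between the libraries. For Agt they were led by Dach1 (0.884) and ended with Fat4 (0.844), with Tex14, Rgs2 and Camk2d between them. For Agtr1a they were led by Serpini1 (0.912), with Rftn1, Pcdh19 and Arhgdib (0.859) among the others, and for Ace they were led by Sfrp4 (0.882), followed by Plscr1, Bdh2, Igdcc4 and Prrx2 (0.858).

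The other genes of the pathway were followed as a list of 26, which includes the members. Enpep, aminopeptidase A, which trims angiotensin II to angiotensin III, was at 497 CPM in LI ICC and 178 CPM in SI ICC, and at 107 and 49.7 CPM in Myh11- mural cells. The other receptors were sparse, with Agtr1b at 1.41 CPM in LI and 1.08 CPM in SI, Agtr2 at 0.705 and 0.155 CPM, and Mas1 at 0.0164 CPM and no UMI. The prorenin receptor Atp6ap2, which also serves the vacuolar proton pump, was at 93.4 and 96 CPM, and Agtrap, which binds the type 1 receptor, at 37.6 and 46.3 CPM. Ctsg, cathepsin G, had no UMI in either library. In the fibroblast lineage 13 of the 26 reached 10 CPM in either library, of which 2 (Ren1 and Agt) were at least 2-fold higher in LI and none was at least 2-fold lower. The median log2 ratio of LI to SI was -0.02 over the list and -0.01 over all 8609 genes, of which 1.9% were at least 2-fold higher and 1.59% at least 2-fold lower. Since those members were chosen for their levels, their count is not independent of the choice.

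Whether the cells with Ren1 carried gut or kidney genes was asked first in CD81 FB. The gut mesenchyme list holds transcription factors of the visceral mesoderm, such as Nkx2-3, Foxf1, Hand1 and Hand2. In LI its summed level was 227 CPM (211 to 244) in the 333 cells with Ren1 and 243 CPM (236 to 251) in the 2450 cells without it, and 76.3 and 71.6% of these cells had a UMI of the list (37.4 and 39.6% after thinning). In SI it was 289 CPM (251 to 331) in the 63 cells with Ren1 and 369.9 CPM (361 to 379) in the 2504 cells without it, with a UMI in 85.7 and 85.2% (44.4 and 50.7% after thinning). The gut genes were thus read in the cells with Ren1, at a level near or below that of the other CD81 FB. Cells with Ren1 were again deeper, at medians of 8484 against 6610 UMIs in LI and 11243 against 6763 in SI. They were also spread differently over the clusters. LI cluster 12 held 30.3% of the LI cells with Ren1 and 11.5% of the class, and LI cluster 1 held 23.1 and 36%. SI cluster 6 held 58.7% of the SI cells with Ren1 and 24.2% of the class. Each contrast of CD81 FB with and without Ren1 therefore also holds a difference in clusters.

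Nkx2-3, a factor of the gut and spleen mesenchyme, was at 106 CPM with Ren1 and 114 CPM without it in LI, and at 195 and 199 CPM in SI. Foxf1, a target of hedgehog signals in gut mesenchyme, was at 54.4 and 66.2 CPM in LI and at 38.7 and 109 CPM in SI. Hand1 was at 12.9 and 5.83 CPM in LI, with Hand2 at 33 and 27.5 CPM. Of the 5 genes of the list at 10 CPM or above in LI, 1 (Hand1) was at least 2-fold higher with Ren1 and none at least 2-fold lower, with a median log2 ratio of -0.11 against -0.03 over all 8311 genes, of which 0.421% were that much higher and 0.553% lower. Of the 4 in SI, none was at least 2-fold higher and 1 (Foxf1) at least 2-fold lower, with a median of -0.44 against -0.02 over all 8466 genes, of which 2.69% were that much higher and 5.1% lower. The SI ratios rest on 63 cells.

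Among CD81 FB, the tubule and podocyte lists were not higher in the cells with Ren1. The tubule list was at 0.944 CPM with Ren1 and 3.83 CPM without it in LI, and at 1.38 and 2.6 CPM in SI. The podocyte list was at 25.8 CPM in both kinds of LI cell and at 22.1 and 22.2 CPM in SI, nearly all of it Synpo, an actin-binding protein of podocytes that other contractile cells also make. Synpo was the only 1 of these 14 genes at 10 CPM or above in either library, and it moved less than 2-fold. The list of kidney developmental factors was at 3.46 against 5.62 CPM in LI and 4.15 against 1.05 CPM in SI, and none of its 8 genes reached 10 CPM. The mesangial list of 2 genes was at 2.2 against 6.3 CPM and 4.15 against 6.47 CPM. As a reference, the few cells that passed a tubule gate, 6 in LI and 11 in SI, had 11439 and 6259 CPM of the tubule list, 227 and 257 CPM of the developmental factors, and 16.2 and 11.2 CPM of the gut list. A shallow LI cluster led by tubule genes such as Slc34a1 and Kap (cluster 6, 188 cells, median 1574 UMIs, given no name) had Ren1 UMIs in 3 cells (1.6%). Tubule and podocyte genes mark kidney epithelium and do not mark kidney fibroblasts.

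**Figure D5:**
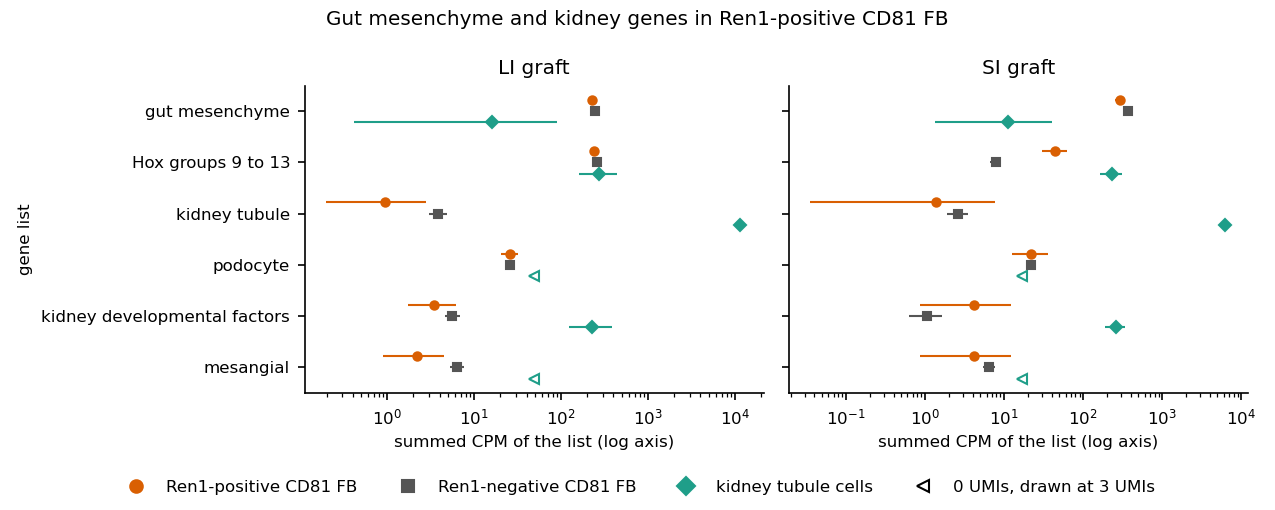
Summed level of the gut, posterior Hox and kidney lists (CPM, log axis) in each library, with exact Poisson 95% intervals. The points are CD81 FB with Ren1, CD81 FB without Ren1 and, as a reference, kidney tubule cells (tubule gate outside the fibroblast and mural gates). In LI CD81 FB the gut list is at 227 CPM with Ren1 and 243 CPM without it, and the tubule list at 0.944 and 3.83 CPM.

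The sex-linked genes split these values further. In LI CD81 FB with only Xist, the gut list was at 222 CPM in the 212 cells with Ren1 and 234 CPM in the 1981 cells without it, and the tubule and podocyte genes together at 21 and 28.5 CPM. Of the 4 gut genes at 10 CPM or above, none was at least 2-fold higher or lower, with a background of 0.503% higher and 0.802% lower over 8350 genes. In LI CD81 FB with only Y-linked UMIs, the gut list was at 229 CPM in the 74 cells with Ren1 and 268 CPM in the 246 cells without it, and Foxf1 was at 25.6 and 64.6 CPM. There 1 of 5 gut genes (Foxf1) was at least 2-fold lower, with a background of 1.49% higher and 2.99% lower over 8196 genes. The only tubule or podocyte gene at 10 CPM or above had a log2 ratio of 0.26 in these Y-linked cells and -0.28 in the Xist cells. In SI the gut list was at 169.8 and 394 CPM in Xist cells (16 with Ren1) and at 336 and 339.5 CPM in Y-linked cells (34 with Ren1). Gut genes were thus read in the Ren1 cells of either kind in both libraries.

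Posterior Hox genes (groups 9 to 13) gave a different reading in SI. In LI CD81 FB they were at 241 CPM with Ren1 and 255 CPM without it, and in the Xist cells at 237 and 266 CPM. In SI CD81 FB they were at 44.3 CPM (30.3 to 62.5) with Ren1 and 7.8 CPM (6.57 to 9.2) without it, with a UMI in 10 of 63 cells (15.9%) and 78 of 2504 cells (3.12%), or 6.35 and 1.24% after thinning. Hoxc9 was at 19.4 and 4.81 CPM and Hoxc10 at 19.4 and 1.33 CPM, with 14 UMIs each in the Ren1 cells, and Hoxd10 had none. The 10 cells held 37 Ren1 UMIs, 11 Nkx2-3 UMIs and 4 Foxf1 UMIs.

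The juxtaglomerular list holds 35 genes known to go with renin in the kidney arteriole, many of them also of mural cells in general. Of the 20 at 10 CPM or above in LI CD81 FB, none was at least 2-fold higher with Ren1 and 1 (Rgs5) at least 2-fold lower, and of the 17 in SI the counts were 0 and 1 (Rgs5 again). Over all genes 0.421% were that much higher and 0.553% lower in LI, and 2.69 and 5.1% in SI, so counts of 0 and 1 in a list of this size are near the background. The median log2 ratio was -0.13 in LI and -0.30 in SI. Rgs5, a pericyte gene, was at 19.8 CPM with Ren1 and 47.5 CPM without it in LI and at 58.1 and 599 CPM in SI. The cells with and without Ren1 differed in their clusters, as given above, and the part of this in the Rgs5 level was not tested. Within LI Xist cells Rgs5 was at 30.4 and 52.6 CPM, less than 2-fold apart, and Myh11 was the gene of the list at least 2-fold lower. Akr1b7, an aldo-keto reductase of renin cells, had no UMI in the LI CD81 FB with Ren1, and only 9 of the 7853 LI fibroblasts had it at all. Of the other renin-angiotensin genes, 14 were at 10 CPM or above in LI, with 0 at least 2-fold higher and 1 lower (Agt), and 11 in SI, with 1 higher (Anpep) and 2 lower (Enpep and Thop1), beside the same shares over all genes.

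Genes that led the Ren1 cells of CD81 FB were listed by rules added after values were seen. Pooled over each library, MHC class II genes were among the first, and the class II list was at 1200 CPM with Ren1 and 462 CPM without it in LI and at 1366 and 787 CPM in SI. Within LI Xist cells the same list was at 189 and 119 CPM, and within LI Y-linked cells at 2455 and 1851 CPM, a smaller ratio within each kind of cell than in the pooled values. Dmkn, dermokine, which led the pooled order with 128 against 48.6 CPM in LI and 73.3 against 5.59 CPM in SI, was at 8.29 against 28.3 CPM in the Xist cells and 313 against 138 CPM in the Y-linked cells. Ranked by the smallest of the ratios within LI Xist cells, LI Y-linked cells and SI, the first 10 of the 2257 genes at 50 CPM or above in all 3 groups were Pcsk5, Uap1, S100a10, Igfbp6, Timp1, Tnfrsf12a, Pi16, Tmem45a, Crip2 and Cd200. Class II genes went the same way in all 3 groups as well, such as Cd74 at 74.6 against 53.2 CPM, 1005 against 815 CPM and 552 against 372 CPM, and H2-Ab1 and H2-Eb1 were not ranked because they did not reach 50 CPM in LI Xist cells. Igfbp6, a binding protein of insulin-like growth factor, was at 1051 against 811 CPM in LI Xist cells, 948 against 581 CPM in LI Y-linked cells and 3539 against 700.4 CPM in SI. Pi16, a marker of adventitial fibroblasts and itself a marker of the CD81 gate, was at 725 against 566 CPM, 466 against 215 CPM and 1253 against 252 CPM. SI cluster 6, led by Pi16 and Igfbp6, held 58.7% of the SI CD81 FB with Ren1 and 24.2% of the class. The SI ratios of these genes therefore also hold a difference in clusters. Pcsk5, a proprotein convertase, was at 302 against 221 CPM, 293 against 199 CPM and 148 against 93.4 CPM.

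In the LI mural gate, 38 of 671 cells had Ren1. Their mural markers were at 5776 CPM against 7768 CPM in the mural cells without Ren1, and Rgs5 was at 2595 against 3912 CPM. The gut list was at 435 CPM against 704 CPM, with Nkx2-3 at 271 against 320.1 CPM and Foxf1 at 126 against 309.8 CPM. The tubule list was at 52.4 against 27.4 CPM, nearly all of it Cyp4b1 (49.3 against 26.7 CPM), which mural cells without Ren1 also had. Akr1b7 was at 12.3 CPM, from 4 UMIs, against 5.15 CPM. The genes that led mural cells with Ren1, ranked by the smaller of the LI and SI ratios, were Ly6a, Ramp1, Zbp1, H2-T23, Pln, Ninj1, Exosc4, Ccl2, Mgst1 and Gngt2, so their choice rests in part on the 4 SI cells, whose share is read above as background, and nothing is drawn from it. Ly6a (Sca-1), a surface antigen of stem and progenitor cells, was at 567 against 171 CPM in LI. In the whole fibroblast lineage the gut list was at 243 CPM with Ren1 and 376 CPM without it in LI, and at 286 and 521 CPM in SI, and the kidney tubule and podocyte genes were at 27.4 and 31.1 CPM and at 21.8 and 27.9 CPM. In the SI fibroblasts with at least 3 Ren1 UMIs the kidney genes were at 35.4 CPM, so the SI order of the kidney genes turned with that limit.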

How the data were processed

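The deposited values were raw UMI counts per gene and barcode, which the authors made with Cell Ranger 3.1.0 on mm10 and handled further in Seurat 3. No other value of the deposited files was used, and every sample column had a label. The members and all gene lists were chosen with earlier results of these data known. Barcodes were kept from 500 genes upward and up to 10% of UMIs from mitochondrial genes. Marker scores were means of ln(1 + UMIs per 10000), with limits of 1.5 (FB), 0.8 (CD81), 0.6 (Fgfr2 and PDGFRAhi), 0.7 (mural and ICC), 1.2 (SMC) and 1.5 (Myh11 in mural cells). At least 3 markers had to be detected, or 1 for FB. UMIs were pooled per class and library and given as CPM with exact Poisson 95% intervals, shares with Clopper-Pearson intervals and ratios with exact binomial intervals; a count of 0 was limited by 3 counts. Shares were repeated with cells thinned to 2000 UMIs (9146 LI and 7373 SI cells reach it). With 1 library per group no test was made.

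Named genes were the members, the fixed lists, the 5 genes most like each member and the genes leading the mural cells with Ren1. The leading genes of CD81 FB were added after values were seen. Some genes that these rules name are not reported here. Ratios used genes at 10 CPM or above (50 CPM for the comparison within 3 groups), in either of the groups compared, log2 ratios used a pseudocount of 1 CPM, and a 2-fold ratio was the limit of size. Clusters were computed with scanpy 1.11.5 and used by number. Scrublet's own limit called 0 barcodes in LI and 1 in SI, so it had not worked and doublets were left in; an alternative removed the 1071 and 742 barcodes with the top scores (0.8% per 1000 barcodes). Of cells with Ren1, 12.6% in LI and 6.76% in SI were among these, against 10 and 8.23% of all. In the matrices 58 symbols occur more than once, and none is a member. Promoter windows are from RefSeq (GRCm38.p6), where Ren1, Agt and Ace were matched and Agtr1a was not; gene positions are from GENCODE vM21. The software was Python 3.11.15 with scipy 1.17.1, numpy 2.4.6, matplotlib 3.10.9 and pandas 2.3.3. Only the ratio and Poisson interval steps were tested, on simulated Poisson counts without the uneven spread of Ren1 over cells.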

Additional observations from a re-analysis of the deposited data

How the results depend on the processing

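Of 108 alternative values, 63 lay within the interval of the reported value and 45 moved outside it; the cause was not tested. A stricter cell filter gave Ren1 81.4 CPM in LI. Removing barcodes with top doublet scores gave Agt 142 and 74.7 CPM (LI and SI here and below). The mean of per-cell CPM gave Ren1 56 and 2.76, Agt 163 and 84.1, Agtr1a 16 and 26.8 and Ace 7.44 and 2.08 CPM. With clusters in place of gates, the share of CD81 FB with Ren1 was 6.3 and 5.55%, and the SI gut list in Ren1 cells 327 CPM. Thinning gave 7.12 and 0.964% of CD81 FB and 3.35% of LI mural cells. Requiring at least 3 Ren1 UMIs gave 6.47 and 0.818% of CD81 FB and 2.53 and 0.0758% of mural cells. In the whole SI fibroblast lineage it gave a gut list of 216 CPM and a kidney list of 35.4 CPM. The settings that follow were chosen after seeing the data. Xist cells alone gave Ren1 45.1 and 3.21, Agt 169 and 65.6, Agtr1a 16.5 and 20 and LI Ace 10 CPM, with Ren1 in 9.67 and 1.06% of CD81 FB and 3.51% of LI mural cells. Y-linked cells alone gave Ren1 184 and 7.34, Agt 12.5 and 67.8, Agtr1a 4.25 and 26.2 and LI Ace 3.12 CPM (SI 3.45), so that Agt was lower in LI than in SI and the Ace values no longer stood apart, with Ren1 in 23.1 and 5.14% of CD81 FB and 27.7 and 0.815% of mural cells. Without cells of at least 50 Ren1 UMIs the LI level was 57.3 CPM. No paired analysis was possible because each group is 1 library, and none could be left out. In SI, 40 of 74 cells with Ren1 rest on 1 UMI, which limits what can be said of them.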
